A study of Mus musculus with 60 samples.

Results

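The comparison described here set striatum of mice killed 2 h after an injection of saline against striatum of uninjected mice of the same time point, called naive. The members were chosen by their labels as the 3 saline and 3 naive arrays of 2 h, which are 6 of the 60 striatal arrays of the series. The saline mice received the vehicle by a single intraperitoneal injection and were handled for it, and the naive mice received none, so that the comparison asks what injection and handling alone were followed by in this tissue. All mice were male C57BL/6J of 8 to 10 weeks with no transgene, and RNA of 2 mice was pooled for each array. The series also holds mice injected with ketamine (20 mg/kg), memantine (15 mg/kg) or PCP (phencyclidine, 5 mg/kg), blockers of NMDA-type glutamate receptors, in groups of 3 arrays at 1, 2, 4 and 8 h. Expression was measured on Illumina MouseWG-6 v2 bead arrays, and levels are normalized log2 intensities, on which a difference of 1 is a doubling. A gene is represented by its brightest probe, and levels of different genes are not comparable.

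Handling and injection are stressors that make the adrenal gland release corticosterone, the glucocorticoid of mice. The hormone enters brain cells and binds the glucocorticoid receptor, which chaperones hold in the cytoplasm, and the bound receptor moves to the nucleus and raises or lowers transcription at DNA elements. Among the genes known to be raised are Sgk1, Tsc22d3 and Fkbp5, and in brain much of the response is attributed to glia and vessels as well as to neurons. The list of receptor targets used here holds 46 genes, all measured, in 4 groups by role, and a separate list holds the receptors, their chaperones and Fkbp5, with 11 of 12 genes measured.

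The response element of the receptor is a pair of inverted 6-letter arms with 3 letters between them, written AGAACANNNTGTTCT. Windows of 300 bases around the start sites, taken from RefSeq on build GRCm38.p6, covered 40 of the 46 targets. The whole element stood in the windows of 3 of 27025 genes (0.0111%) and of 1 target, Sgk1. At least 1 arm alone, AGAACA or TGTTCT on either strand, stood in 7 of the 40 targets (17.5%) and in 21.3% of all genes. The 4 targets with an unadjusted p under 0.05 at 2 h were picked by p in these same data. Of them, 3 had a window with an arm, and no link of arm to difference was tested. For each of these genes the window with the most whole elements, then the most arms, was taken, and windows were not matched to transcript variants. These windows are shown with the arms in capitals and all other bases in lower case, 5′ to 3′ on the strand of the gene. They lie at chr10:21993640-21993939 on the plus strand (Sgk1), chr7:126676369-126676668 on the minus strand (Sult1a1) and chrX:140600473-140600772 on the minus strand (Tsc22d3).
Sgk1: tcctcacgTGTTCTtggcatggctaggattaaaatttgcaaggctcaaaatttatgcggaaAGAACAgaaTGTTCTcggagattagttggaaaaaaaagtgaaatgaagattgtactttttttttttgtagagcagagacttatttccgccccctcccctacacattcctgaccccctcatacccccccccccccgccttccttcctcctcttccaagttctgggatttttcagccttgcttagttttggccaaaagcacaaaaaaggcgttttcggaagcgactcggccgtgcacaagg
Sult1a1: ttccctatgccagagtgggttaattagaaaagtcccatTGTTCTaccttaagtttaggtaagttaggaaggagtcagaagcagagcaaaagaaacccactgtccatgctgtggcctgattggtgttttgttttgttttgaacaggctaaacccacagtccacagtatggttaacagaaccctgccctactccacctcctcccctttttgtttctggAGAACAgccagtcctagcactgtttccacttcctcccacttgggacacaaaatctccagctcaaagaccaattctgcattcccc
Tsc22d3: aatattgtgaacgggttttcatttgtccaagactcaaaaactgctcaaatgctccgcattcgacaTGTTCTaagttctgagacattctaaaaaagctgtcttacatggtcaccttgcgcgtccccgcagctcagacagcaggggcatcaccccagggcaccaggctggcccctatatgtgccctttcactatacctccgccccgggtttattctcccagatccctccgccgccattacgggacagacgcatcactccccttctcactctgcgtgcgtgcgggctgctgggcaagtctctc
In Sgk1 the paired arms, which make the whole element, began 189 and 180 bases before the start site, and a further arm began 242 bases before it. At other start sites Sgk1 had 2 more windows, not shown, with 1 arm each. The arms of Sult1a1 began 212 and 34 bases before the start, and that of Tsc22d3 185 bases before it. A match to letters is a description of the window and says nothing of binding.

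No gene passed the test at 2 h. Of 44236 probes, 0 had an adjusted p under 0.05 by limma with Benjamini-Hochberg adjustment (0%), the smallest adjusted p was 0.482, and 1880 probes (4.25%) had an unadjusted p under 0.05. The smallest adjusted p was 0.0562 with the log2 values of the authors, 0.124 without background correction, 0.0528 without saline replicate 3 and 0.00772 (1 probe, of Olfr1508) without saline replicate 2. Over the 18936 named genes the median log2 difference was 0.00, the saline mean was the higher in 50.7%, and the 3 saline arrays lay above all 3 naive arrays in 740 genes (3.91%) and below them in 746 (3.94%). Pairs of arrays correlated at 0.956 to 0.968 within the groups and at 0.959 to 0.969 between them. An exact permutation of 3 against 3 arrays cannot give a two-sided p under 0.1, so the tests rest on the spread shared by all 20 groups of the series, and the replicates are separate pools of mice.

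The 6 arrays were not alike in markers of neighbouring tissues. Markers of striatal projection neurons were abundant, with 17 of 18 above the median level of all genes and Drd1, the dopamine receptor of the direct pathway, between 11.88 and 12.16 on all 6 arrays. Markers of the choroid plexus, a tissue in the ventricles with a secretory epithelium, stood out on saline replicate 3, where 8 of 10 measured were highest. Ttr, the secreted thyroxine carrier of that epithelium, read 15.60 there, against 10.60 to 11.81 on the other arrays. The summed level of the list ran from 4700 to 54700 on the saline arrays and from 4160 to 6180 on the naive arrays, in linear intensity units. In bulk tissue, fewer cells of a type and less RNA per cell cannot be told apart. That array also had the highest median signal, 394.5 intensity units, with 201.4 to 267.6 on the others. Hypothalamic peptides differed among the naive arrays. Pmch, the precursor of melanin-concentrating hormone, read 12.40, 12.09 and 8.30 on naive replicates 1 to 3 and 8.70, 8.16 and 10.51 on the saline arrays, and Hcrt, the precursor of the orexins, read 10.85, 9.94 and 7.32 against 7.75, 8.35 and 8.57. The part of these differences in the results below was not tested, and values without saline replicate 3 are given for the targets as a list and for single genes whose difference it moved by over 1.5 times. The 6 arrays lay on 6 BeadChips, so no value within a BeadChip exists, and all naive arrays lay at one position of the chip and all saline arrays at another, so that position and group cannot be told apart.

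Receptor targets stood a little higher on the saline arrays as a group, without any member passing the test. The median log2 difference of the 46 targets was 0.12, with 0.00 over all genes, and 30 of them (65.2%) had the higher mean in saline. The differences ran from -0.32 to 0.70. With arrays scaled to a common median in place of quantile normalization, the median of the targets was 0.03, that of all genes was -0.08, and 0 targets had an unadjusted p under 0.05 with saline higher (1.35% of all genes). In the quantile-normalized values adjusted p was 1 for every target, and 4 had an unadjusted p under 0.05 with saline higher (8.7%, with 2.18% of all genes) and 0 with saline lower (1.57% of all genes). The 4 were Btg2, Sgk1, Sult1a1 and Tsc22d3. Leaving out 1 array at a time gave 1 to 5 such targets (1.61% to 2.4% of all genes), and with BeadChip as a fixed block the 4 were Gpd1, Pdk4, Tsc22d3 and Txnip (2.57% of all genes). Arrays did not overlap in 4 targets with saline higher (8.7%, against the 3.91% of all genes) and in 2 with saline lower. Of 17 targets with several probes, 7 had the same sign in all of them. Differences rounded to 2 decimals were used, and a probe at 0.00 counted as not of the same sign, as for Cdkn1a. The 17 targets that the study's text names had a median of 0.16 and the 29 others one of 0.11. Of those 17, 3 had an unadjusted p under 0.05 by limma and 3 had arrays apart, with saline higher (17.6% each). Of the 29 others, 1 and 1 did (3.45% each). The study picked genes on data that include these arrays, so counts over the 46 are not independent of that choice. The arrays contributed unequally, since the mean level of the targets, less its mean on the naive arrays, was 0.02, 0.09 and 0.26 on saline replicates 1 to 3 and 0.03, 0.00 and -0.03 on the naive arrays. Saline replicate 3, the array with the high choroid plexus markers, was the highest of the 6 in 19 of 46 targets (41.3%), and in 18.7% of all genes. Without it the median was 0.08, 27 targets were higher, and Sult1a1 alone had an unadjusted p under 0.05 with saline higher (2.33% of all genes).

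**Figure D1:**
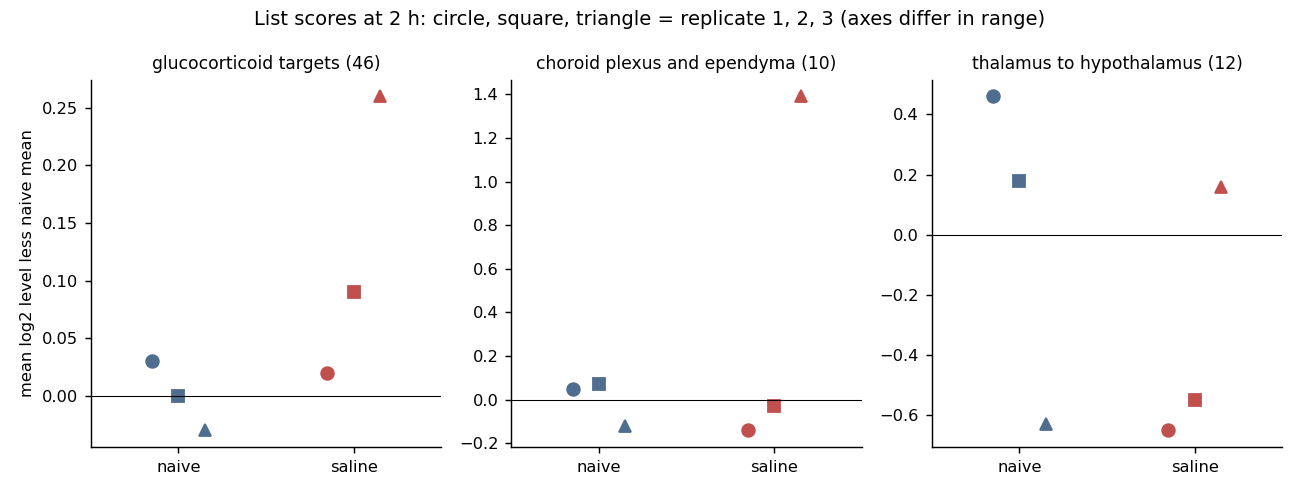
Scores of 3 gene lists on the 6 arrays of 2 h, as the mean log2 level of the list less its mean on the naive arrays (y axis, ranges differ), with naive arrays in blue and saline arrays in red. The triangle of saline replicate 3 stands at 0.26 for the receptor targets and at 1.39 for the choroid plexus markers, and naive replicates 1 and 2 lie at 0.46 and 0.18 for the thalamic to hypothalamic markers.

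Among the receptors and chaperones, Fkbp5, the immunophilin that the receptor induces and that in turn lowers its affinity for the hormone, had the smallest p. It read 8.79, 9.92 and 9.34 on the saline arrays and 8.84, 8.54 and 9.0 on the naive arrays. Saline replicate 1 lay within the naive range and the other saline arrays lay above it, so the groups overlapped. The log2 difference was 0.55 ± 0.20 (SE), with a 95% interval of 0.15 to 0.96, unadjusted p of 0.00834 and adjusted p of 1 by limma. Leaving out 1 array at a time moved the difference between 0.27 and 0.84. The probes of both receptors lay below the median level of all genes. Nr3c1, which encodes the glucocorticoid receptor, differed by 0.10 ± 0.28 (0.23 without saline replicate 3), and Nr3c2, which encodes the mineralocorticoid receptor, by -0.38 ± 0.33. The other probe of Nr3c2 differed by -0.32 ± 0.20, with all saline arrays below all naive arrays. Over the 11 measured genes the median difference was 0.04, and 6 had the higher mean in saline. With arrays scaled to a common median in place of quantile normalization, that median was -0.12.

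Targets with roles in signalling and feedback, 15 genes, had a median difference of 0.07, with 8 higher in saline. Sgk1, a kinase that controls ion channels and transporters and is a classic target of the receptor, read 12.04, 11.90 and 12.89 on the saline arrays and 12.08, 11.48 and 11.80 on the naive arrays. Only saline replicate 3 lay above the naive range. The difference was 0.49 ± 0.22, with an unadjusted p of 0.0327, and it was 0.18 without saline replicate 3. Tsc22d3, whose product GILZ carries anti-inflammatory effects of glucocorticoids, read 12.27, 11.79 and 12.51 in saline and 11.94, 11.67 and 11.67 in naive. Saline replicates 1 and 3 lay above all naive arrays, the difference was 0.42 ± 0.20 with an unadjusted p of 0.0433, and without saline replicate 3 it was 0.26. All 3 probes of Tsc22d3 had the same sign, and their mean differed by 0.18.

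Dusp1, the phosphatase that inactivates MAP kinases, went the other way. It read 10.78, 10.72 and 10.53 in saline and 10.80, 11.05 and 11.02 in naive, a difference of -0.28 ± 0.17 with arrays that did not overlap and an unadjusted p of 0.101. Errfi1, an inhibitor of the EGF receptor, read 10.36, 10.41 and 10.51 in saline and 10.54, 10.68 and 10.67 in naive, a difference of -0.20 ± 0.16, which was -0.03 with BeadChip as a fixed block. These were the targets with all saline arrays below all naive arrays, 2 of 46 (3.94% of all genes). Nfkbia, the inhibitor of NF-kappaB, differed by -0.02 ± 0.25 (-0.27 without saline replicate 3) and Map3k6, a MAP kinase kinase kinase, by 0.32 ± 0.24. The other probe of Map3k6, of a similar level, differed by 0.49 ± 0.23 (unadjusted p of 0.0426 by limma), with all saline arrays above all naive arrays. Plekhf1, an endosomal adaptor, had the lowest value of the 46, -0.32 ± 0.22, the mean of its probes differed by -0.11, and without saline replicate 3 the difference was -0.49.

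**Figure D2:**
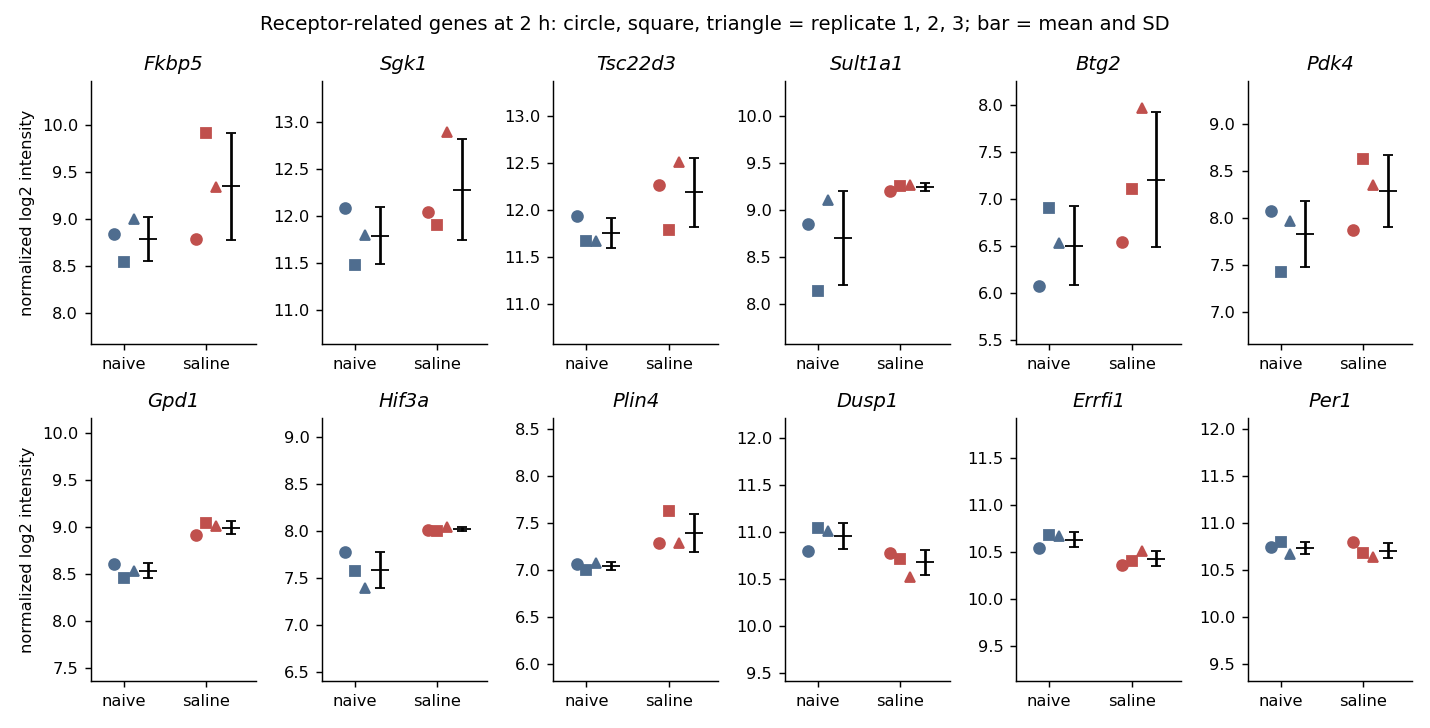
Normalized log2 intensity (y axis, the same span in each panel) of Fkbp5 and 11 receptor targets on the 3 naive (blue) and 3 saline (red) arrays of 2 h, with circle, square and triangle for replicates 1 to 3 and the mean ± SD beside them. The groups are apart in Sult1a1, Gpd1, Hif3a and Plin4 with saline higher and in Dusp1 and Errfi1 with saline lower, and single arrays carry the mean of Sgk1 and Btg2.

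Metabolic targets, 16 genes, had the highest median of the 4 groups, 0.22, with 13 higher in saline and 3 lower, and the median was 0.12 without saline replicate 3. Sult1a1, a sulfotransferase of phenols and catechols, read 9.21, 9.26 and 9.27 on the saline arrays and 8.85, 8.14 and 9.11 on the naive arrays, a difference of 0.55 ± 0.22 with an unadjusted p of 0.0155. The saline arrays were alike, and the size of the difference came from the spread of the naive arrays, since it was 0.27 without naive replicate 2. Gpd1, the cytosolic glycerol-3-phosphate dehydrogenase, was level within each group, at 8.91, 9.04 and 9.01 in saline and 8.60, 8.45 and 8.53 in naive. Its difference was 0.46 ± 0.27, and leaving out any 1 array kept it between 0.42 and 0.50, while with BeadChip as a fixed block it was 1.07. Plin4, a coat protein of lipid droplets, read 7.28, 7.62 and 7.28 in saline and 7.06, 7.0 and 7.07 in naive, a difference of 0.35 ± 0.34.

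For Gpd1 and Plin4 the SE comes from the spread over all 20 groups, which for these genes was wider than within these 2 groups. Pdk4, the kinase that turns off pyruvate dehydrogenase, differed by 0.46 ± 0.24 with overlapping arrays (0.80 with BeadChip as a fixed block). Mt2, a metallothionein, differed by 0.38 ± 0.27 with its highest reading, 9.68, on saline replicate 3, by 0.11 without that array and by 0.03 with BeadChip as a fixed block. Glul, glutamine synthetase, was the least certain target, with a difference of 0.42 ± 0.81 and an interval of -1.22 to 2.06. Its difference was -0.08 without saline replicate 3. The glucose transporter Slc2a1, the lipase inhibitor Angptl4, the mTOR inhibitor Ddit4, the thioredoxin inhibitor Txnip and the lipid transporter Mfsd2a had differences of 0.17 to 0.24, each with an interval that included 0. Without saline replicate 3 those of Angptl4, Ddit4 and Txnip were 0.08, 0.16 and 0.07.

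Hif3a, a hypoxia-inducible factor without the strong activation domain of its relatives, was the 1 target of the transcription factor and clock group whose arrays did not overlap. It read 8.01, 8.00 and 8.04 in saline and 7.77, 7.57 and 7.39 in naive, a difference of 0.44 ± 0.25 with an unadjusted p of 0.0869, and 2 of its 3 probes were higher in saline. The mean of the 3 probes differed by 0.10. It was the 1 target whose arrays lay apart in opposite directions at 2 h and at another time, 4 h (0.977% of all genes). Per1, a clock repressor that the receptor can induce, read 10.79, 10.68 and 10.63 in saline and 10.74, 10.79 and 10.66 in naive, a difference of -0.03 with an interval of -0.40 to 0.33, and of 0.00 without saline replicate 3. Its other probes disagreed, at -0.28 ± 0.19 with all saline arrays below all naive arrays, and at 0.39 ± 0.22 with overlap. Over the 9 transcription factors and clock targets the median was 0.07 and 5 were higher in saline. Among the 6 growth arrest targets, Btg2, an antiproliferative regulator of mRNA decay, had the largest difference of the 46. It read 6.54, 7.10 and 7.96 in saline and 6.07, 6.9 and 6.53 in naive, a difference of 0.70 ± 0.30 at a low level (unadjusted p of 0.0239), of 0.32 without saline replicate 3 and of 0.38 without background correction. Cdkn1a, the cyclin-dependent kinase inhibitor p21, differed by 0.21 ± 0.29, and by 0.06 without saline replicate 3.

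The intervals say how much the comparison could have missed. The 95% interval reached a log2 difference of 0.5 or more in 27 of 46 targets and 1 or more in 3, and lay within -0.5 to 0.5 in 10. The SE of a target ranged from 0.12 to 0.81.

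**Figure D3:**
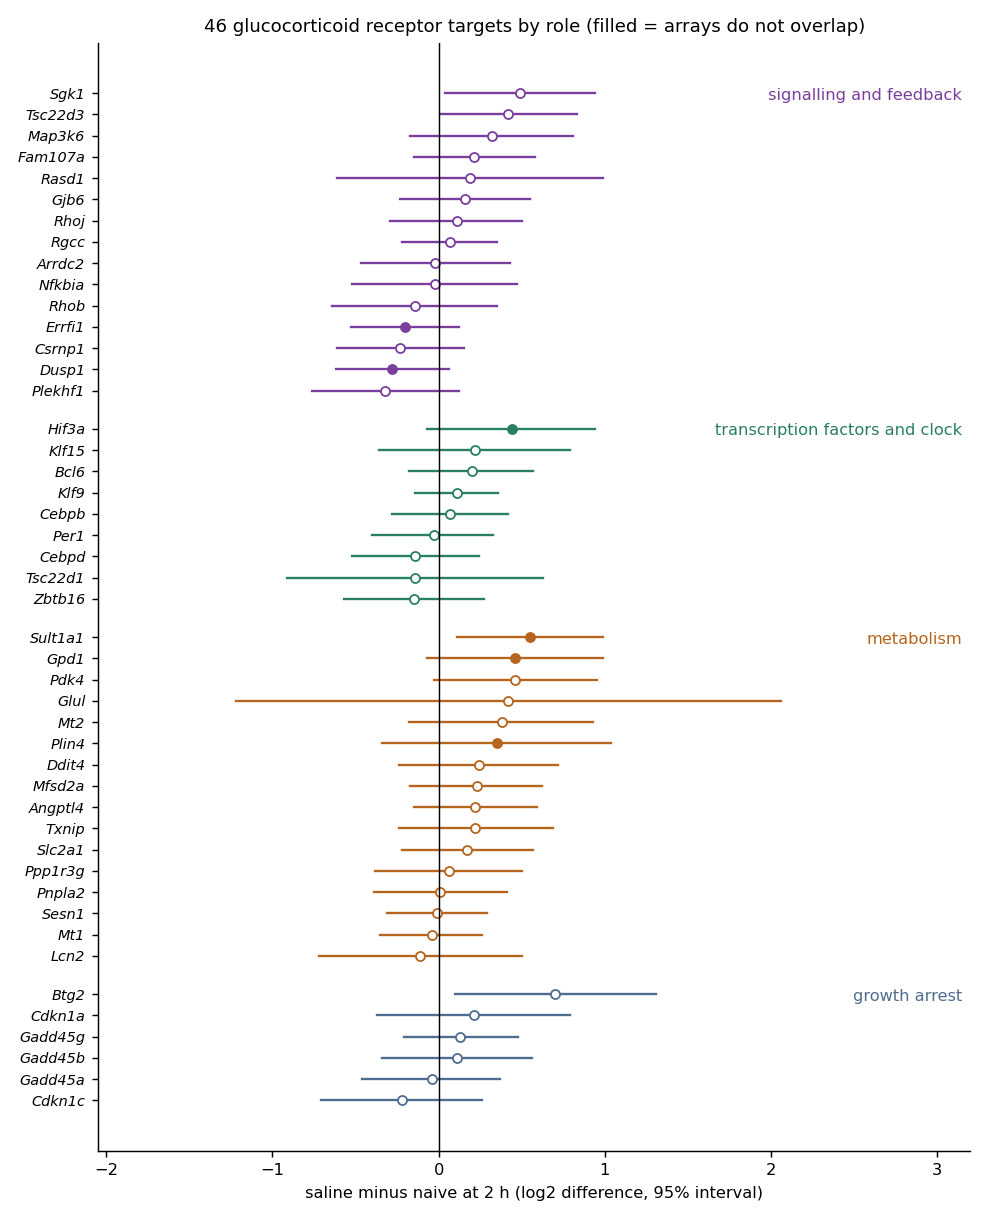
Difference of saline minus naive at 2 h (x axis, log2) with the 95% interval of the fit for the 46 receptor targets, grouped and coloured by role. Filled points mark genes whose 3 saline and 3 naive arrays do not overlap, and the points run from -0.32 for Plekhf1 to 0.70 for Btg2.

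The same comparison at the other time points placed 2 h within the course. At 1 h and 8 h 0 probes passed (1805 and 1930 with an unadjusted p under 0.05, 4.08% and 4.36%), and at 4 h 115 passed, 30 with saline higher and 85 with saline lower (0.26%). The median difference of the 46 targets was 0.02 at 1 h, 0.12 at 2 h, -0.17 at 4 h and -0.10 at 8 h, with medians over all genes of 0.00, 0.00, -0.04 and -0.01. At 1 h 26 targets were higher in saline (48.9% of all genes), at 2 h 30, at 4 h 14 (45.1%) and at 8 h 18 (48.3%). The arrays lay apart with saline higher in 4 targets at 1 h (3.6% of all genes), in 1 at 4 h (5.09%) and in 3 at 8 h (4.48%), and with saline lower in 0 at 1 h (3.99%), in 4 at 4 h (7.3%) and in 4 at 8 h (5.29%). A test of the 2 h difference less the mean of those at 1, 4 and 8 h found 0 of 44236 probes past the threshold, with a smallest adjusted p of 0.507 and 1953 probes (4.41%) at an unadjusted p under 0.05. It was positive in 34 of 46 targets (53.6% of all genes), 5 of them with an unadjusted p under 0.05 (2.33% of all genes had one in that direction) and 0 in the other direction. Each time has its own naive and saline arrays.

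At 4 h the choroid plexus list had a median difference of -0.98, with 9 of 10 markers lower in saline, and the thalamic to hypothalamic list one of -0.65, with 11 of 12 lower. At 8 h all 18 projection neuron markers were higher in saline, with a median of 0.30. The part of these lists in the targets' course was not tested. Rhoj, whose 3 probes differed in sign at 2 h, was the 1 target past the threshold at 4 h, where it fell by 0.99 on the log2 scale (adjusted p of 0.016), and at 2 h it differed by 0.11 ± 0.20 (-0.06 without saline replicate 3). Fkbp5 differed by 0.32 at 1 h, 0.55 at 2 h, -0.83 at 4 h (adjusted p of 0.0531) and 0.26 at 8 h. Its 4 h arrays read 8.53, 8.33 and 7.77 in saline and 9.19, 9.01 and 8.93 in naive, with no overlap. The 2 h difference of Fkbp5 less that at 4 h was 1.38 ± 0.28, with an adjusted p of 0.193 over all probes. Sgk1 differed by 0.55 at 1 h, 0.49 at 2 h, 0.03 at 4 h and -0.10 at 8 h.

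**Figure D4:**
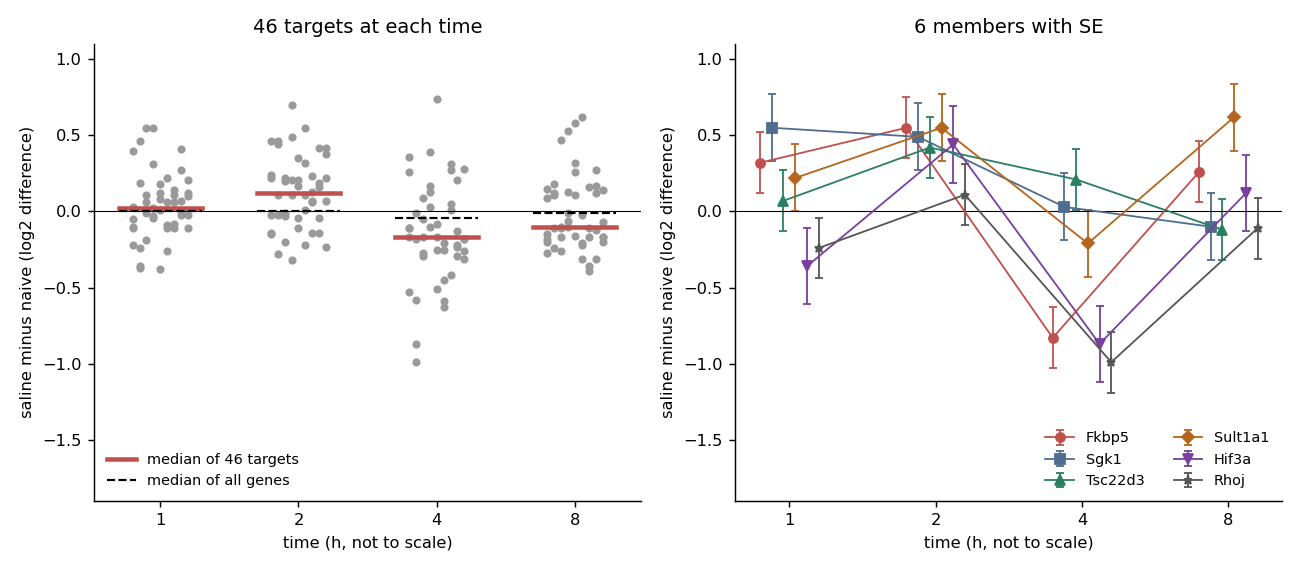
Difference of saline minus naive (y axis, log2) at 1, 2, 4 and 8 h (x axis, not to scale), with the 46 receptor targets as points and medians as lines on the left, and Fkbp5 and 5 targets with their SE on the right. The median of the targets is 0.12 at 2 h and -0.17 at 4 h, and Fkbp5, Hif3a and Rhoj lie lowest at 4 h.

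The drug groups of 2 h were also injected, and the naive arrays are shared by every such comparison, so the levels are given side by side without a test. The median over the 46 targets of a group's mean less the naive mean was 0.12 for saline, 0.34 for ketamine, 0.42 for memantine and 0.29 for PCP. The study's text names 17 of the 46, among them genes that it picked as drug-responsive on these same arrays. The drug medians are therefore not independent of how the list was made. Plin4 had means of 7.04 ± 0.04 in naive, 7.39 ± 0.20 in saline, 8.55 ± 0.22 with ketamine, 8.69 ± 0.24 with memantine and 8.39 ± 0.33 with PCP (SD, n = 3). Hif3a had means of 7.58 ± 0.19, 8.02 ± 0.02, 8.74 ± 0.09, 8.73 ± 0.16 and 8.75 ± 0.47 in the same order. In both genes the saline arrays lay above all naive and below all drug arrays. Other targets had another order, among them Btg2, with a mean of 7.20 ± 0.72 in saline and of 6.54 to 6.64 in the drug groups, and Gpd1, with 8.99 ± 0.07 in saline and 8.62 to 8.76 in the drug groups. These 4 genes were picked after their values were seen. Sgk1 had means of 11.79 ± 0.30 in naive, 12.28 ± 0.54 in saline, 12.75 ± 0.23 with ketamine, 13.56 ± 0.06 with memantine and 13.29 ± 0.14 with PCP, and saline replicate 3, at 12.89, lay within the range of the ketamine arrays. Fkbp5 had means of 9.35 ± 0.57 in saline and of 9.26 to 9.47 in the drug groups, above the 8.79 ± 0.23 of naive, with saline replicate 1 at the naive level.

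**Figure D5:**
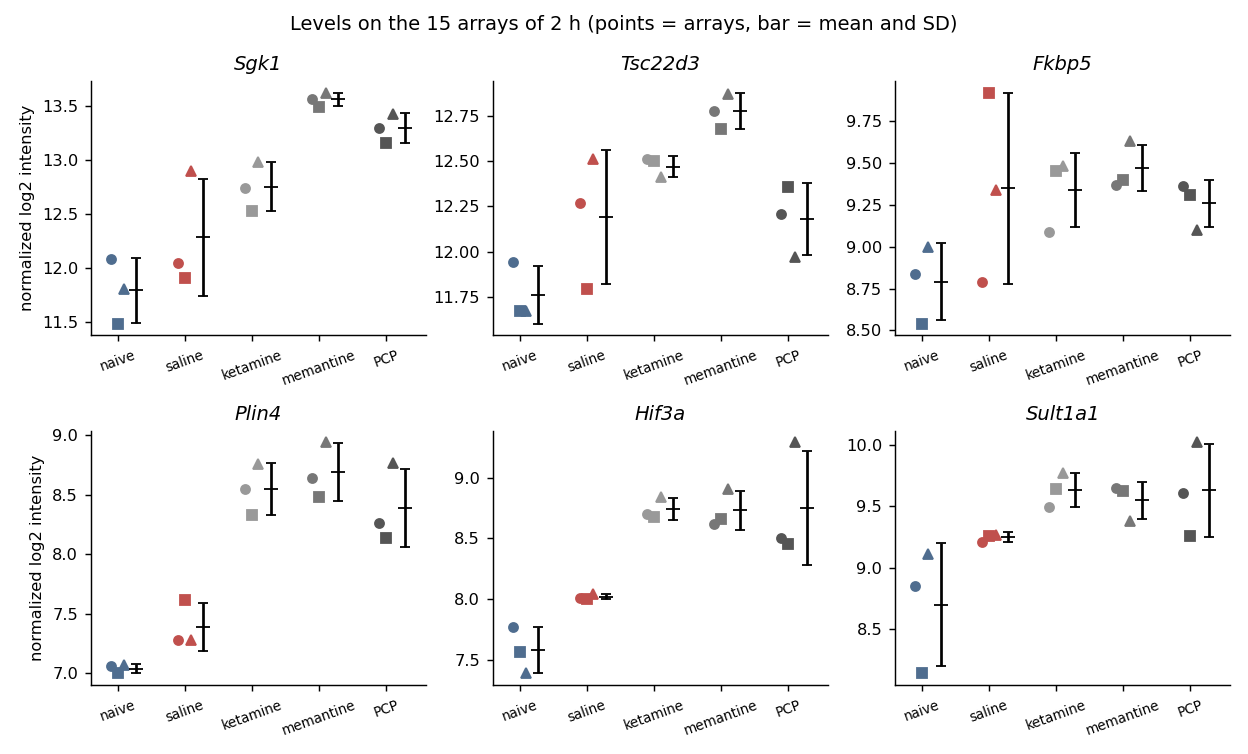
Normalized log2 intensity (y axis, ranges differ) of Sgk1, Tsc22d3, Fkbp5, Plin4, Hif3a and Sult1a1 on the 15 arrays of 2 h, in naive, saline, ketamine, memantine and PCP mice, with points for arrays and the mean ± SD beside them. Saline arrays lie between naive and drug arrays in Plin4 and Hif3a, and overlap the naive arrays in Sgk1, Tsc22d3 and Fkbp5.

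In other pathways of the stress and activity response the list medians lay between -0.09 and 0.04. Immediate early genes, which neurons switch on with activity, had a median difference of 0.00 with 16 of 32 higher in saline. Ptgs2, the inducible cyclooxygenase, read 5.91, 5.87 and 6.30 in saline and 6.56, 7.52 and 6.89 in naive, a difference of -0.97 ± 0.31 at a low level (unadjusted p of 0.00272), and its other probe had the opposite sign (mean of both, -0.38). Junb, a subunit of AP-1, read 8.89, 9.01 and 8.82 in saline and 9.52, 9.33 and 9.64 in naive, a difference of -0.59 ± 0.25 (unadjusted p of 0.0239), which was -0.13 with BeadChip as a fixed block. Both had all saline arrays below all naive arrays (3.94% of all genes), as did no other gene of that list, and neither passed the adjusted threshold. Arc, which regulates glutamate receptors at synapses, differed by -0.52 ± 0.27 with overlapping arrays.

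In the circadian clock list 9 of 19 genes were higher in saline, with Per2 at 10.93, 10.92 and 10.98 against 10.74, 10.69 and 10.71 (difference of 0.23 ± 0.15) and Csnk1d, a kinase of the period proteins, at -0.30 ± 0.18, both without overlap. The arrays of that list lay apart in 1 gene with saline higher (3.91% of all genes) and in 2 with saline lower (3.94% of all genes). Heat shock and ER chaperones had a median of 0.04 with 10 of 16 higher, and Hspa1a, the inducible Hsp70, read 8.49, 8.57 and 8.10 against 7.74, 7.83 and 7.99 (difference of 0.54 ± 0.34), while its other 2 probes had the opposite sign and the mean of the 3 differed by 0.00. In NF-kappaB and IL-6 signalling 7 of 19 genes were higher, among them Socs3, the feedback inhibitor of cytokine receptors, by 0.51 ± 0.25. Of 18 insulin signalling genes 12 were higher, with Akt2, a kinase below the insulin receptor, at 0.53 ± 0.26 (0.30 without saline replicate 3), and Slc2a4, the insulin-sensitive glucose transporter, at 0.38 ± 0.26. Of 12 MAPK phosphatases and feedback inhibitors 4 were higher, with a median of -0.08. With arrays scaled to a common median the medians of the clock, heat shock and insulin lists were -0.09, -0.07 and -0.03. Over these 6 lists 0 genes passed the adjusted threshold by limma. An unadjusted p under 0.05 was found in 2 genes with saline higher (2.18% of all genes) and in 2 with saline lower (1.57% of all genes). Fgf11, an intracellular FGF homologous factor named in the study's text, read 8.00, 8.12 and 7.27 against 7.55, 7.03 and 7.0, a difference of 0.60 ± 0.28 with an unadjusted p of 0.0335.

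The genes with the smallest p over the whole array did not pass either, and those with saline higher were mostly dim. Of the 12 with saline higher, 10 lay below the median level of all genes, with differences of 0.79 to 1.35, and of the 12 with saline lower 4 did, with differences of -1.20 to -0.65. Lrp2bp, which encodes a protein that binds the LRP2 receptor, read 7.86, 7.70 and 7.09 in saline and 6.63, 5.91 and 6.08 in naive, a difference of 1.35 ± 0.30 (adjusted p of 0.518). Olfr1508, an olfactory receptor gene, read 7.87, 6.73 and 7.99 against 6.50, 6.41 and 6.39, a difference of 1.1 ± 0.25, and Tnp1, a chromatin protein of sperm, differed by 1.35 ± 0.37. In the other direction Npas3, a neuronal transcription factor, read 6.75, 7.08 and 7.37 in saline and 7.70, 8.34 and 7.98 in naive, a difference of -0.94 ± 0.27, while its other 3 probes had the opposite sign and the mean of the 4 differed by -0.13. Abcc8, the sulfonylurea receptor of ATP-sensitive potassium channels, read 7.46, 7.76 and 7.57 against 8.37, 8.30 and 8.25, a difference of -0.71 ± 0.22. Its other probe differed by -0.04 ± 0.31. In all 5 genes the saline and naive arrays of the brightest probe did not overlap, as in 11 of the 12 in each direction. These genes had been picked by p on the same arrays. Of all genes, 3.91% lay apart with saline higher and 3.94% with saline lower.

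Of the cell type lists, the choroid plexus and ependyma list had the highest median difference, 0.26, which was -0.06 without saline replicate 3, with scores of -0.14, -0.03 and 1.39 on the saline arrays. Sostdc1, a secreted BMP antagonist of the choroid plexus, read 7.87, 8.51 and 9.07 in saline and 7.54, 7.64 and 7.54 in naive. Its difference was 0.91 ± 0.38. The thalamic to hypothalamic list had the lowest median, -0.20, with scores of -0.65, -0.55 and 0.16 on the saline and 0.46, 0.18 and -0.63 on the naive arrays. The other lists had medians between -0.10 and 0.07, and several lay to one side, with lower means in saline in 14 of 18 projection neuron markers, 8 of 9 cortical and hippocampal excitatory markers, 9 of 12 endothelial markers, 8 of 11 oligodendrocyte markers and 7 of 9 oligodendrocyte precursor markers. Their part in the targets' values was not tested.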

How the data were processed

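Striatal RNA was measured on 60 Illumina arrays, 3 for each of 20 groups. The authors exported non-normalized intensity values with BeadStudio v3.0, and these deposited intensities were the values used here. The authors also deposited log2 values made with BeadArray v2.14.1 by background subtraction and quantile normalization, which served as an alternative. Intensities were corrected with normexp (offset 50), quantile normalized and taken to log2. Probes above the 25th percentile of their array on at least 3 arrays were kept, 44236 of 45281. A fit of 20 group means was made with limma 3.58.1 in R 4.3.3 over all 60 arrays, with 40 residual degrees of freedom and Benjamini-Hochberg adjustment over all probes kept. Of the probes, 34885 had 1 gene symbol, 18 had several and 10378 had none. The brightest probe over the 60 arrays stood for a gene. The number of arrays limits the precision. The script was tested on simulated data.

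The members and lists were chosen with earlier results of these data known, and so were the genes named. The naming rule took all targets and receptor genes, the 12 smallest p in each direction, up to 4 genes with the smallest p of each other list, and genes in the study's text. Drd1, Ttr, Pmch and Hcrt were given as defining markers. The alternatives changed background correction, normalization, filter, BeadChip and replicate blocks, variance model, samples in the fit, probe choice and single arrays.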

Additional observations from a re-analysis of the deposited data

Results flagged for a closer look

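For 11 genes the 3 saline arrays lay wholly on one side of the naive arrays at 2 h and wholly on the other side at another time point. None of the differences between the times passed the adjusted threshold by limma. They were 11 of 337 listed or named genes (3.26%), some of which had been named for small p-values at 2 h, and 185 of all 18936 genes (0.977%) had such a pattern. Against 4 h, the 2 h difference less the other was 1.3 for Hif3a (adjusted p of 0.312), -1.21 for Junb (0.37), 2.20 for Sostdc1 (0.243), 1.42 for Pir (0.301), -1.24 for Duox1 (0.452), -0.73 for Ugt8a (0.405) and -0.26 for Csnk1e (0.847). Against 8 h it was -1.55 for Kirrel2, 0.82 for Pced1a and -0.51 for Sox9, and against 1 h it was -1.39 for Ptgs2, each with an adjusted p of 1. The choroid plexus list, to which Sostdc1 belongs, had a median difference of 0.26 at 2 h and of -0.98 at 4 h. For Pir the brightest probe was higher in saline at 2 h, by 0.97, and its other probes were lower. They differed by -0.57, with all saline arrays below all naive arrays, and by -0.17.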

How the results depend on the processing

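The count of 0 probes past the threshold at 2 h held under each alternative run except without saline replicate 2, where 1 passed (Olfr1508, difference of 1.5, adjusted p of 0.00772), and the range over single arrays left out was 0 to 1, as for the 2 h difference less the others. Probes with an unadjusted p under 0.05 numbered 429 of 17390 with the filter on all 60 arrays, and 1880 of 44236 in the main fit. The share was lower too, since genes with such a p and saline higher were 0.836% with that filter and 2.18% in the main fit. With the replicate block 0 probes passed (smallest adjusted p of 0.659, 1846 unadjusted). Replicate numbers did not pair the samples, since 0 of 6 arrays correlated best with their own number.

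Median scaling moved the most list medians, to 0.03 for the targets (0.11 less that of all genes), -0.04 for their transcription factors, -0.12 for receptors, -0.15 for NF-kappaB, -0.13 for astrocytes, -0.09 for the clock, -0.18 for endothelial cells, -0.07 for heat shock, -0.03 for insulin, -0.08 for microglia, -0.24 for oligodendrocytes, -0.04 for interneurons and -0.19 for projection neurons, with all genes at -0.08. Targets with an unadjusted p under 0.05 and saline higher numbered 0 there (1.35% of all genes), 2 with the saline and naive arrays alone (1.73%), 2 with the 6 arrays alone in the fit (2.13%) and 1 to 5 without single arrays (1.61% to 2.4%). Targets without overlap numbered 2 under median scaling (2.05%) and 6 to 12 without single arrays, where 7.65% to 9.25% of all genes did. The NF-kappaB median was -0.04 without background correction, -0.05 in the authors' values and with the probe mean, 0.12 with the filter on all 60 arrays and 0.00 with BeadChip as a fixed block. That block gave -0.08 for astrocytes, 0.45 for blood cells, 0.20 for insulin and -0.03 for interneurons. The clock gave -0.08 with the filter on all 60 arrays and -0.03 with the probe mean, which gave -0.02 for receptors and -0.04 for interneurons.

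Without single arrays the medians ranged from -0.08 to 0.00 for NF-kappaB, -0.20 to 0.15 for blood cells, -0.08 to 0.03 for the clock, -0.22 to -0.06 for endothelial cells, 0.12 to 0.26 for metabolism, -0.02 to 0.13 for transcription factors, -0.03 to 0.10 for microglia, -0.14 to 0.02 for oligodendrocytes, -0.09 to 0.08 for interneurons and -0.14 to -0.03 for projection neurons. Single genes were followed through the alternatives only for a set narrowed, after a first run of the alternatives was seen, to those planned for the text. Among them, differences that changed sign were -0.19 for Gjb6, -0.31 for Glul, 0.52 for Nfkbia and 0.13 for Per1 with BeadChip fixed, 0.05 for Nfkbia with BeadChip random, and 0.04 for Nfkbia, 0.03 for Per1 and -0.07 for Rhoj with the probe mean. Without single arrays they ranged from -0.12 to 0.99 for Glul, -0.13 to 0.08 for Mt1, -0.27 to 0.12 for Nfkbia, -0.05 to 0.23 for Nr3c1, -0.06 to 0.28 for Rhoj and -0.04 to 2.29 for Ttr. The cause of these moves was not tested. Over all list medians and alternatives 407 values moved by less than the spread between arrays and 43 by more.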
